A study of Mus musculus with 23 samples.

Results

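The transcription factor genes *Myc* and *Mycn* were followed together with 8 genes for proteins of the nucleolus, *Ncl*, *Npm1*, *Nop56*, *Nop58*, *Fbl*, *Dkc1*, *Nolc1* and *Rrp9*, in mouse embryonic stem cells (ESCs). These 10 members, of 37310 gene identifiers in the count files, were selected on their low values in replicate 1 of every group, so that contrast is described here and was not tested. All 10 passed the expression filter of the RNA-seq analysis, among 14346 genes over the 9 libraries and 14172 genes over replicates 2 and 3.

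RNA-seq was performed on 3 biological replicates of each of 3 groups after 48 h of treatment. *Zbtb11* KO cells carried *Zbtb11* alleles with loxP sites on both sides of exon 3 (Zbtb11 lox/lox) and the ERt2-Cre transgene at the *Rosa26* locus, and received 250 nM 4-hydroxytamoxifen (4OHT), which switches the recombinase on. The EtOH control was the same engineered line with the carrier ethanol, so it held the same alleles and transgene. The 4OHT control had wild-type *Zbtb11* and *Rosa26* alleles and received 250 nM 4OHT, so that both its alleles and its treatment set it apart from the EtOH control. The 3 groups were ESCs of the E14 parental line kept without feeder cells in serum and LIF, and the knockout and its EtOH control rest on a single engineered line. ChIP-seq was performed for FLAG-tagged Zbtb11 in 3 replicates, for FLAG in 2 replicates of untagged cells, and with a Zbtb11 antibody in 4 replicates of wild-type E14 cells.

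*Myc* encodes a basic helix-loop-helix protein that dimerises with Max and binds E-box sequences, of which CACGTG is the canonical form. It is known for promoting growth and ribosome production, and in ESCs Myc and its close relative N-myc, from *Mycn*, both support self-renewal. Ribosomes are assembled in the nucleolus, where RNA polymerase I transcribes the ribosomal RNA precursor and small nucleolar ribonucleoproteins (snoRNPs) modify and cleave it. Box C/D snoRNPs carry the methyltransferase fibrillarin, and box H/ACA snoRNPs carry the pseudouridine synthase dyskerin.

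The E-box is shown for each nucleolar gene in which it was found, because it is the sequence Myc proteins are known to bind. It was searched on both strands of the mm9 genome within 1000 bases of the annotated 5′ end of each gene, a search chosen after the expression values had been seen. Each line gives 30 bases on the strand of the gene, with the E-box in capitals. The first 3 lines hold 1 of 5 matches in *Ncl* and 1 of 2 in *Npm1*, all in introns, and 1 of 3 in *Nop56*, upstream of the start. They are followed by the single intronic matches of *Nop58* and *Rrp9*, the upstream match of *Fbl*, and 1 of the 2 exonic matches of *Dkc1*.
Ncl chr1:88255393-88255422, minus strand: cgcctccccgcgCACGTGctctggtgcgcg
Npm1 chr11:33062371-33062400, minus strand: aacccctaggagCACGTGgttgccacgtgg
Nop56 chr2:130099607-130099636, plus strand: gccatgagcaacCACGTGgtgccgagcagc
Nop58 chr1:59742215-59742244, plus strand: ggttcaggtgaaCACGTGgcttctccgaat
Rrp9 chr9:106378968-106378997, plus strand: tttcccagcaatCACGTGaggaggggaaag
Fbl chr7:28954742-28954771, plus strand: ggcgctcctttcCACGTGcgaaagcctgag
Dkc1 chrX:72341961-72341990, plus strand: ccttgccacagcCACGTGgagaacccgaag

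The 7 genes on these lines were the members with an E-box in this window, that is 7 of the 8 nucleolar members, while *Nolc1*, *Myc* and *Mycn* had none. Among all 14172 tested genes 32.8% had at least 1. In *Ncl* the 5 matches began 621, 645, 666, 787 and 824 bases downstream of the 5′ end. In *Npm1* the matches began 819 and 830 bases downstream, so the end of the printed line already holds the letters of the other. In the narrower window from 250 bases upstream to 50 bases downstream, only *Fbl* kept a match, 11 bases upstream, against 9.7% of all tested genes. A match describes the letters of the genome and not a bound site, and no Myc binding was measured in these samples.

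The libraries held 14301457 to 23876604 reads on genes, and in each group the replicate 1 library was the smallest. Replicate 1 stood apart from the rest. The median absolute difference between libraries of a group, over all genes on the log2 scale, was 0.235 to 0.339 between replicate 1 and the others and 0.0987 to 0.147 between replicates 2 and 3. Reads assigned to no annotated feature in the counting took 29.1 to 31.6% of the reads in replicate 1 and 25.3 to 29.4% in the others. Whether these reads lay within or between genes was not examined. The 8 ESC markers, among them *Pou5f1*, *Nanog* and *Sox2*, were at 119 or more reads per 1e6 reads on genes (CPM) in every library, with sums of 3752 to 4285 CPM in replicate 1 and 3419 to 4374 CPM in the others. The 15 markers of other cell types summed to 72.8 to 116 CPM in replicate 1 and 57.7 to 108 CPM in the others, and 5 of the 15 were under 1 CPM in every library. The part of depth and of these cell type markers in the replicate 1 values was not tested. The deleted gene could not be followed, since the annotation holds its locus within *Rpl24*, a gene for a ribosomal protein.

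*Myc* (ENSMUSG00000022346.8, chromosome 15, 61816946 to 61821929, plus strand) stood lowest in replicate 1. In the EtOH control it was at 8.34, 37.1 and 38.5 CPM, scaled from here on by the trimmed mean of M values (TMM), in replicates 1, 2 and 3. In *Zbtb11* KO cells the values were 8.62, 34.0 and 37.5 CPM, and in the 4OHT control 4.60, 28.0 and 30.3 CPM. The raw counts behind the replicate 1 values were 160, 148 and 67 reads. Replicate 1 lay below the other 2 libraries in each group by a wide margin, while replicates 2 and 3 of a group lay close together. On the log2 CPM scale, replicate 1 minus the mean of replicates 2 and 3 was -2.17 in the EtOH control, -2.04 in *Zbtb11* KO cells and -2.63 in the 4OHT control, that is 4.49-, 4.10- and 6.21-fold lower. Replicate 2 minus replicate 3 was -0.14 to -0.05 on this scale. The mean over the 3 groups, -2.28, was the lowest of all 14346 genes. In bulk RNA, fewer cells with the transcript and less of it per cell cannot be told apart.

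*Mycn* (ENSMUSG00000037169.8, chromosome 12, 12942902 to 12948720, minus strand) showed a smaller difference. It was at 234, 293 and 340 CPM in replicates 1, 2 and 3 of the EtOH control. In *Zbtb11* KO cells it was at 254, 293 and 330 CPM. The 4OHT control gave 178, 223 and 301 CPM. Replicate 1 was the lowest library of each group, but replicate 2 also lay below replicate 3. The log2 difference of replicate 1 from the others was -0.43, -0.29 and -0.54 in the EtOH, *Zbtb11* KO and 4OHT groups, and that of replicate 2 from replicate 3 was -0.22, -0.17 and -0.43.

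Per length of annotated exons, *Mycn* exceeded *Myc* in every library. On this scale of CPM per kilobase (FPKM), *Mycn* ranged from 54.0 to 103 and *Myc* from 1.69 to 14.2. *Myc* made up 4.14, 3.95 and 3.04% of the sum of both in replicate 1 of the EtOH, *Zbtb11* KO and 4OHT groups, and 10.8 to 13.3% in the other 6 libraries. The summed FPKM of both genes was 55.7 to 80.4 in replicate 1 and 78.0 to 117 in replicates 2 and 3, with replicate 1 lowest within each group.

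**Figure D1:**
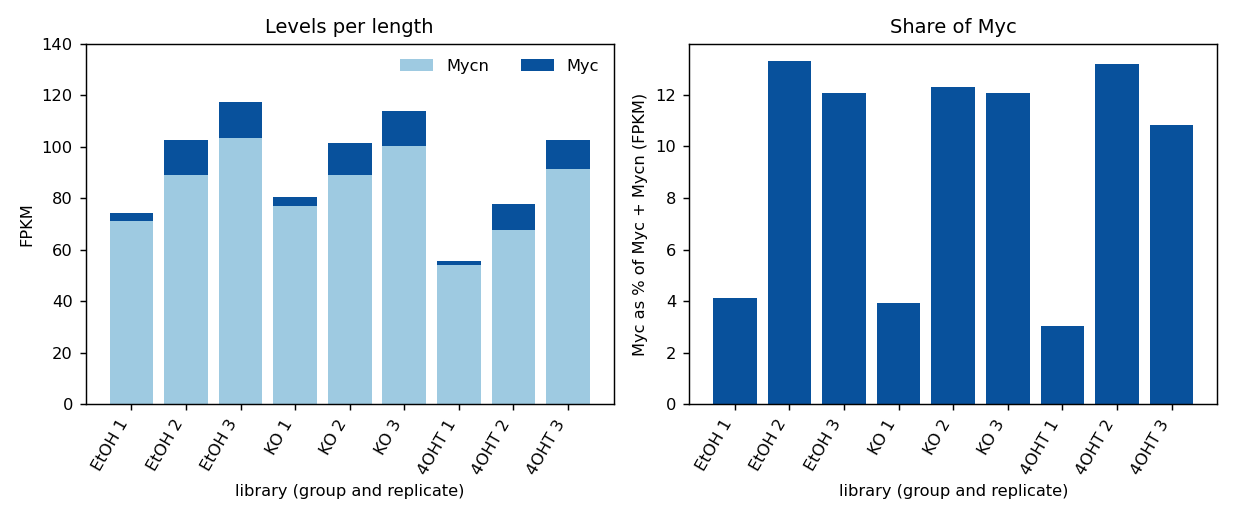
FPKM of *Mycn* and *Myc* stacked for each of the 9 RNA-seq libraries (left) and *Myc* as a percentage of both (right). The *Myc* share is 3.04 to 4.14% in the replicate 1 library of each group and 10.8 to 13.3% in replicates 2 and 3.

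Among the nucleolar members, *Npm1* and *Ncl* were the most abundant. *Npm1* (ENSMUSG00000057113.7, chromosome 11, 33052287 to 33063206, minus strand) encodes nucleophosmin, a chaperone of the granular component of the nucleolus. It was at 2741, 3428 and 3627 CPM in replicates 1, 2 and 3 of the EtOH control. The values were 2757, 3301 and 3622 CPM in *Zbtb11* KO cells and 2891, 3380 and 3915 CPM in the 4OHT control. *Ncl* (ENSMUSG00000026234.6, chromosome 1, 88241294 to 88256030, minus strand) encodes nucleolin, an RNA-binding protein needed for ribosomal RNA transcription and early processing. Its values were 2097, 2722 and 2766 CPM in the EtOH control, 2172, 2668 and 2778 CPM in *Zbtb11* KO cells and 1968, 2589 and 2953 CPM in the 4OHT control. Both genes were lowest in replicate 1 of each group, with log2 differences of -0.36 to -0.33 for *Npm1* and -0.49 to -0.33 for *Ncl*. Stretches of the *Npm1* transcript of at least 100 bases occurred with at least 95% identity at 5 loci elsewhere in mm9, the longest over 1265 bases. Its counts may therefore be affected by reads that match more than 1 place.

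Of the genes for box C/D core proteins, *Nop58* and *Nop56* differed more than *Npm1* and *Ncl*. *Nop58* (ENSMUSG00000026020.2, chromosome 1, 59741853 to 59768968, plus strand) and *Nop56* (ENSMUSG00000027405.10, chromosome 2, 130100166 to 130105049, plus strand) encode the paired scaffold proteins of the box C/D snoRNP. *Nop58* was at 231, 368 and 387 CPM in the EtOH control, 233, 354 and 374 CPM in *Zbtb11* KO cells and 184, 273 and 337 CPM in the 4OHT control. For *Nop56* the values were 238, 344 and 359 CPM, 252, 337 and 369 CPM, and 188, 261 and 286 CPM in the same order of groups. In replicate 1 the log2 difference was -0.70, -0.64 and -0.72 for *Nop58*, the second lowest of the members, and -0.56, -0.48 and -0.54 for *Nop56*. *Fbl* (ENSMUSG00000046865.5, chromosome 7, 28954765 to 28964288, plus strand) encodes fibrillarin. It was at 100.2, 136 and 129 CPM, 105, 132 and 133 CPM, and 99.0, 121 and 133 CPM, and the log2 differences were -0.40 to -0.33. Near-identical sequence covered 848 bases of a *Nop56* transcript at the longest of 5 other loci and the whole 1161 bases of the *Fbl* transcript at 1 other locus. The counts of both genes may be affected as for *Npm1*. For *Mycn* and *Dkc1* near-identical matches spanned at most 182 and 159 bases, and the other 5 members had none.

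*Rrp9* (ENSMUSG00000041506.8, chromosome 9, 106378294 to 106387755, plus strand) encodes a protein specific to the box C/D particle of the U3 snoRNA, which guides cleavage of the precursor. Its replicate 1 values were 96.7, 93.1 and 98.6 CPM in the EtOH, *Zbtb11* KO and 4OHT groups, against 116 to 136 CPM in the other 6 libraries. *Dkc1* (ENSMUSG00000031403.8, chromosome X, 72341193 to 72355116, plus strand) encodes dyskerin, and was at 182 to 190 CPM in replicate 1 and 217 to 251 CPM in the others. *Nolc1* (ENSMUSG00000015176.8, chromosome 19, 46150353 to 46160018, plus strand) encodes a chaperone of both kinds of snoRNP. It was at 251, 255 and 207 CPM in replicate 1 and 313 to 382 CPM in the others. For these 3 genes no replicate 1 library reached the level of any other library. The log2 differences were -0.43 to -0.33 for *Rrp9*, -0.36 to -0.33 for *Dkc1* and -0.68 to -0.49 for *Nolc1*.

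**Figure D2:**
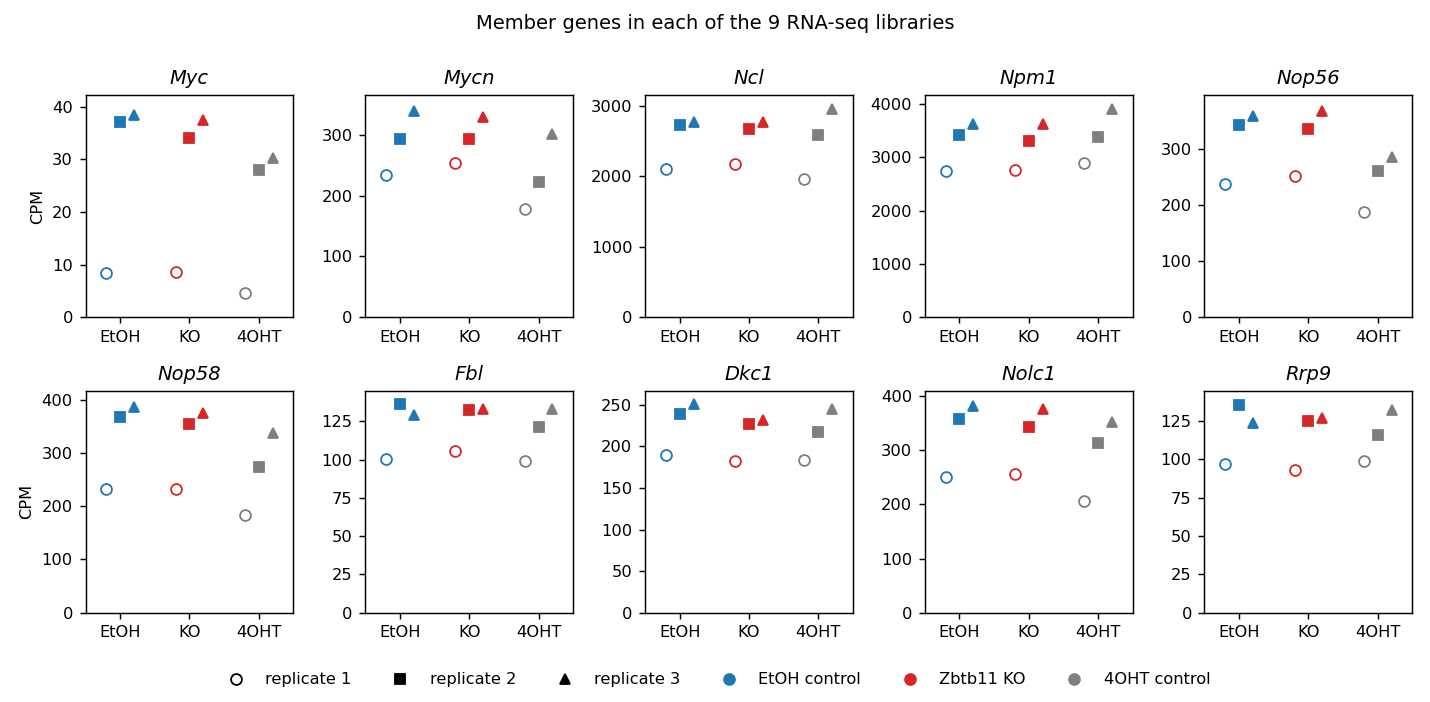
CPM of the 10 members in the 9 RNA-seq libraries, with replicate 1 as open circles, replicate 2 as squares and replicate 3 as triangles, and the groups in colour (EtOH control blue, *Zbtb11* KO red, 4OHT control grey). In each panel and group the open circle is the lowest point, and for *Myc* it lies at 4.60 to 8.62 CPM against 28.0 to 38.5 CPM.

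The 8 nucleolar members together summed to 5945, 6050 and 5818 CPM in replicate 1 of the EtOH, *Zbtb11* KO and 4OHT groups, and to 7271 to 8352 CPM in the other 6 libraries. By FPKM in the EtOH control, *Npm1* was the highest at 1225 ± 174 (SD, n = 3), followed by *Ncl* at 306 ± 45.3. The next in order, *Nop58* at 127 ± 32.8, *Fbl* at 105 ± 16.4, *Nolc1* at 90.8 ± 19.2, *Mycn* at 87.8 ± 16.2 and *Nop56* at 76.5 ± 16.1, each lay within 1 SD of their neighbour. These SDs include the low replicate 1 values. Within each EtOH library *Nop58* lay above *Fbl*, *Fbl* above *Nolc1* and *Mycn* above *Nop56*. The order of *Nolc1* and *Mycn* differed between libraries and was not resolved. *Dkc1* at 55.0 ± 7.79, *Rrp9* at 42.5 ± 7.13 and *Myc* at 10.3 ± 6.27 closed the order. *Dkc1* lay more than 1 SD above *Rrp9*, which in turn lay more than 1 SD above *Myc*. This order depends on the length used. The annotated exons totalled 4099 bases for *Nop56* and 2788 for *Rrp9*, while their longest coding transcripts held 1877 and 1586 bases. For *Nop58* and *Fbl* both lengths were equal, at 2587 and 1161 bases. The order per transcript length was not examined.

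All 10 members were lowest in replicate 1 in all 3 groups, which is what selected them, and 29.4% of all 14346 genes had this pattern (4212 genes). The opposite pattern, highest in replicate 1 in all 3 groups, was found in 4301 genes. The median of the members was -0.41 on the log2 scale, beside a median of 0.01 for all genes. By the mean over groups, 456 genes stood at or below *Nop58*, 782 at or below *Nolc1*, 963 at or below *Nop56* and 1543 to 2212 at or below the other 6 members apart from *Myc*.

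Other genes of the same processes were taken from lists that exclude the members. All 43 tested genes of the small subunit processome, the particle that builds the small ribosomal subunit, were lowest in replicate 1 in all 3 groups, with a median of -0.43. They ranged from -0.84 at *Wdr46* to -0.08 at *Imp3*. Of 41 genes for large subunit assembly 40 showed the pattern, with a median of -0.38, from -0.76 at *Nop16* to -0.04 at *Nsa2*. The RNA polymerase I machinery had it in 14 of 15 genes (median -0.37), from -0.85 at *Polr1b*, a core subunit, to -0.08 at *Ttf1*, a termination factor. It was found in 6 of 8 other box C/D genes (median -0.32) and in 5 of 5 other H/ACA genes (median -0.33). The lowest and highest of these were *Znhit3* at -0.76 and *Ruvbl2* at -0.07, both for box C/D assembly factors, and *Naf1* at -0.50 and *Shq1* at -0.29, for H/ACA assembly factors. These lists were chosen with results of the same libraries known, and share the replicate 1 libraries with the members.

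Genes around Myc itself were mixed. Of 12 partners and antagonists of Myc, 5 were lowest in replicate 1 in all 3 groups and 2 were highest, with a median of -0.01. *Max*, the dimerisation partner, stood lowest at -0.49, and *Usp28*, a deubiquitinase that stabilises Myc, highest at 0.51. Of 21 textbook Myc targets outside the nucleolus, 14 were lowest and 3 highest in replicate 1, with a median of -0.35. They ran from -1.57 at *Ccnd2*, which encodes cyclin D2, to 0.42 at *Ldha*, which encodes lactate dehydrogenase A. The ESC markers had a median of -0.01, with *Zfp42* lowest at -0.64 and *Dppa5a* highest at 0.47. The 10 tested markers of other cell types had a median of 0.42, with 2 lowest and 6 highest in replicate 1, from -0.76 at *Pax6* to 0.87 at *Gata6*.

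**Figure D3:**
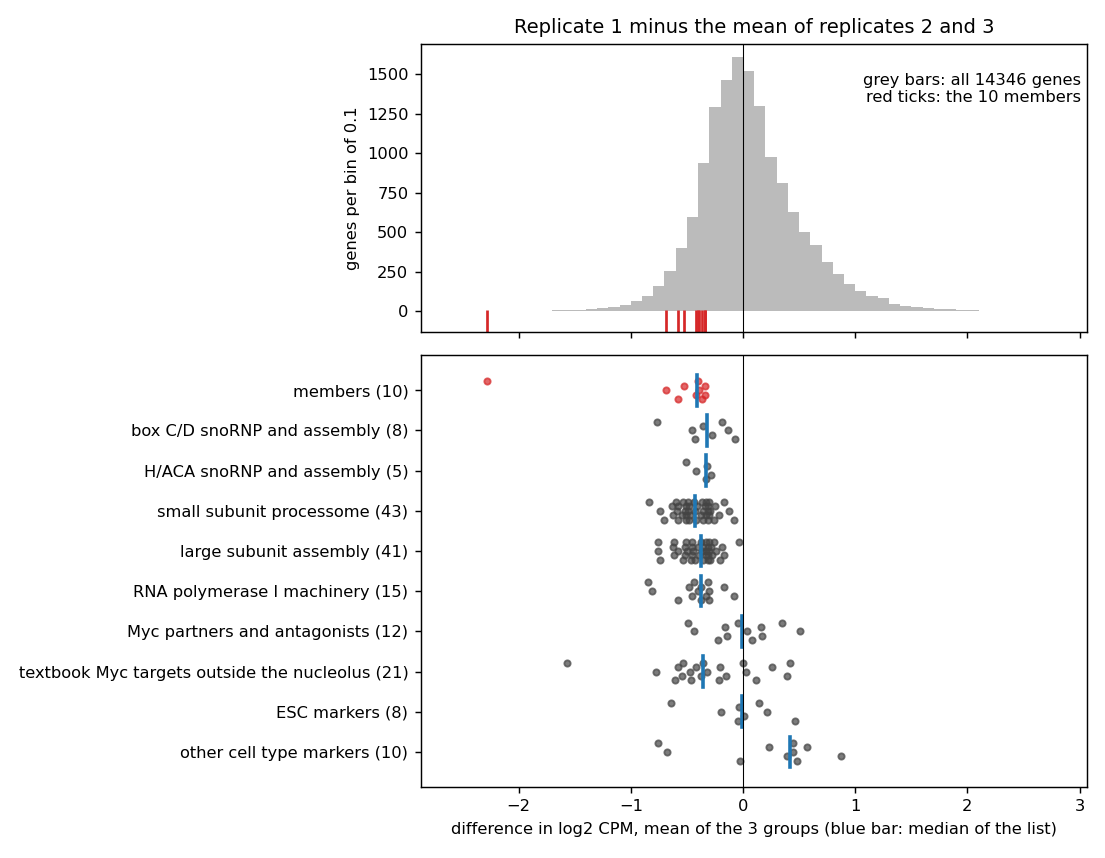
Distribution over 14346 genes (top, grey bars, in bins of 0.1) of replicate 1 minus the mean of replicates 2 and 3 in log2 CPM, averaged over the 3 groups, with red ticks for the 10 members, and the same quantity for each gene of the members and 9 other lists (bottom, numbers of genes in brackets, blue bars for medians). *Myc* at -2.28 lies at the far left, and the medians of the 5 ribosome biogenesis lists lie between -0.43 and -0.32.

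Pearson's r of log2 CPM over the 9 libraries described which genes followed the members most closely, among genes of at least 10 CPM on average. With the mean of the 8 nucleolar members, *Myc* had an r of 0.978 and *Mycn* one of 0.861. All 10 members were selected on the low replicate 1 values that enter these r, so a high r among them follows from the selection and is not a finding. The 5 genes most like this mean were *Rcl1*, *Ina*, *Ddx52*, *Topors* and *Wdr75*, with r of 0.994 to 0.997 among 9222 genes. *Ina*, which encodes a neuronal intermediate filament protein, was at 36.0 to 46.5 CPM in replicate 1 and 78.9 to 117 CPM in the others. *Rcl1* and *Wdr75* are known for roles in processing the ribosomal RNA precursor. Among the 5 genes most like *Myc* of 9231 were *Polr3f*, *B3galnt2* and *G3bp2*, each with an r of 0.995. *G3bp2*, which encodes an RNA-binding protein of stress granules, was at 137 to 217 CPM in replicate 1 and 362 to 468 CPM in the others. Both profiles carry the low replicate 1 values that selected the members, so genes low in replicate 1 rank high here. That pattern was found in 29.4% of all genes. These values of r describe the likeness of profiles over 9 libraries that share replicate numbers, and carry no p value.

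Deletion of *Zbtb11* was examined over replicates 2 and 3, in which the contrast that selected the members does not enter. No member differed between *Zbtb11* KO cells and the EtOH control by edgeR's quasi-likelihood test with Benjamini-Hochberg adjustment. Between a *Zbtb11* KO library and the EtOH library of the same number, the log2 difference of a member ran from -0.13 at *Myc* in replicate 2 to 0.12 at *Mycn* in replicate 1. The log2 fold changes ran from -0.10 at *Dkc1* to 0.00 at *Nop56*, and the lowest unadjusted p among the 10 in edgeR's test was 0.203. For *Myc* the fold change was -0.08 (standard error 0.08, 95% confidence interval -0.27 to 0.10), and for *Mycn* -0.02 (standard error 0.12, -0.29 to 0.24). Over the nucleolar members the intervals lay within -0.25 and 0.16. In the same comparison 1.5% of the 14172 tested genes were differentially expressed (DE, adjusted p under 0.05), 1.35% lower (191 genes) and 0.148% higher (21 genes) in *Zbtb11* KO cells. A fit with the replicate number as block gave 322 DE genes, and again 0 of the 10 members. All 3 replicates gave 0 members as well, with or without the block, and so did DESeq2. Without the block the fit of all 3 replicates could detect little at *Myc*, with a 95% confidence interval of -1.78 to 1.65 (standard error 0.76). The standard errors of the other members there ran from 0.15 at *Dkc1* to 0.27 at *Nop58*. Over replicates 2 and 3 those of *Dkc1* and *Nop58* were 0.07 and 0.09.

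The 2 controls differed at more genes. Between them 17.1% of the tested genes were DE, 8.22% lower (1165 genes) and 8.86% higher (1255 genes) in the 4OHT control, and 3 of the 10 members were among the lower ones. *Nop56* was at 261 and 286 CPM in the 4OHT control against 344 and 359 CPM in the EtOH control. Its log2 fold change was -0.36 (standard error 0.07, edgeR adjusted p = 0.00614). *Myc*, at 28.0 and 30.3 against 37.1 and 38.5 CPM, changed by -0.37 (standard error 0.09, edgeR adjusted p = 0.0121). *Nop58*, at 273 and 337 against 368 and 387 CPM, changed by -0.30 (standard error 0.09, edgeR adjusted p = 0.0373). For each of the 3 genes the values of the 4OHT control lay below both EtOH libraries, and the replicate 1 libraries stood in the same order. A replicate block raised the count to 3914 genes, with 13.5% lower, and *Mycn* at -0.28 joined the 3 members (edgeR adjusted p = 0.00353, beside 0.153 without the block). The other 6 members lay between -0.15 and 0.05 and were not DE in either fit. Cell type markers differed in the same comparison. Of the 8 ESC markers, *Dppa5a* at 0.63, *Klf4* at 0.51 and *Zfp42* at 0.30 were higher and *Nanog* at -0.36 was lower in the 4OHT control. Of the 10 tested markers of other cell types, *Acta2* at -3.48, *Col1a2* at -2.17 and *Neurod1* at -1.40 were lower and *Thy1* at 0.70 was higher. All 15 summed to 57.7 and 62.2 CPM in replicates 2 and 3 of the 4OHT control and to 74.8 and 108 CPM in the EtOH control, without TMM. The part of these cell type differences in the members' values was not tested.

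These 3 calls depended on which libraries entered. Where a library of a compared group was left out, its group kept 1 library, which was assumed to vary like those of the other groups. With all 3 replicates and no block 0 members were DE, and *Myc* at -0.41 had an adjusted p of 0.852 in edgeR. *Myc* missed the threshold without EtOH replicate 2 (edgeR adjusted p = 0.0633), EtOH replicate 3 (0.109) or 4OHT replicate 2 (0.0515), and *Nop56* without EtOH replicate 3 (0.0737). *Nop58* missed it without any 1 of the 6 libraries other than 4OHT replicate 3, with adjusted p values of 0.0612 to 0.212 in edgeR. Its log2 fold change was -0.16 without 4OHT replicate 2 and -0.34 to -0.27 without 1 of the other 4, beside -0.30 with all 6. *Mycn* was called without 4OHT replicate 3 (edgeR adjusted p = 0.00438).

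With the 4OHT control as the reference, 18.7% of the tested genes were DE in *Zbtb11* KO cells, 10.3% lower (1457 genes) and 8.38% higher (1188 genes). With library sizes in place of TMM the split turned to 1222 lower and 1550 higher. This comparison shares libraries with both others. *Nop56* at 0.36 (standard error 0.07, edgeR adjusted p = 0.00455) and *Myc* at 0.29 (standard error 0.09, edgeR adjusted p = 0.0365) were higher in *Zbtb11* KO cells. *Nop58* at 0.25 had an edgeR adjusted p of 0.0711, and 0.00554 with the replicate block. *Mycn* at 0.24 had 0.187, and 0.00608 with the block. The block raised the number of DE genes to 4174, with 13.7% higher, and that of members to 4. In this comparison 3 of 8 ESC markers were lower, and of the 10 tested markers of other cell types 3 were higher and 2 lower, led by *Acta2* at 3.48, and the part of these differences was not tested either. The call of *Myc* was lost without each of the 6 libraries other than 4OHT replicate 3 (edgeR adjusted p = 0.0609 to 0.242) and in DESeq2 (adjusted p = 0.0923), and that of *Nop56* without *Zbtb11* KO replicate 3 (edgeR adjusted p = 0.0628). Both were lost with all 3 replicates without the block.

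**Figure D4:**
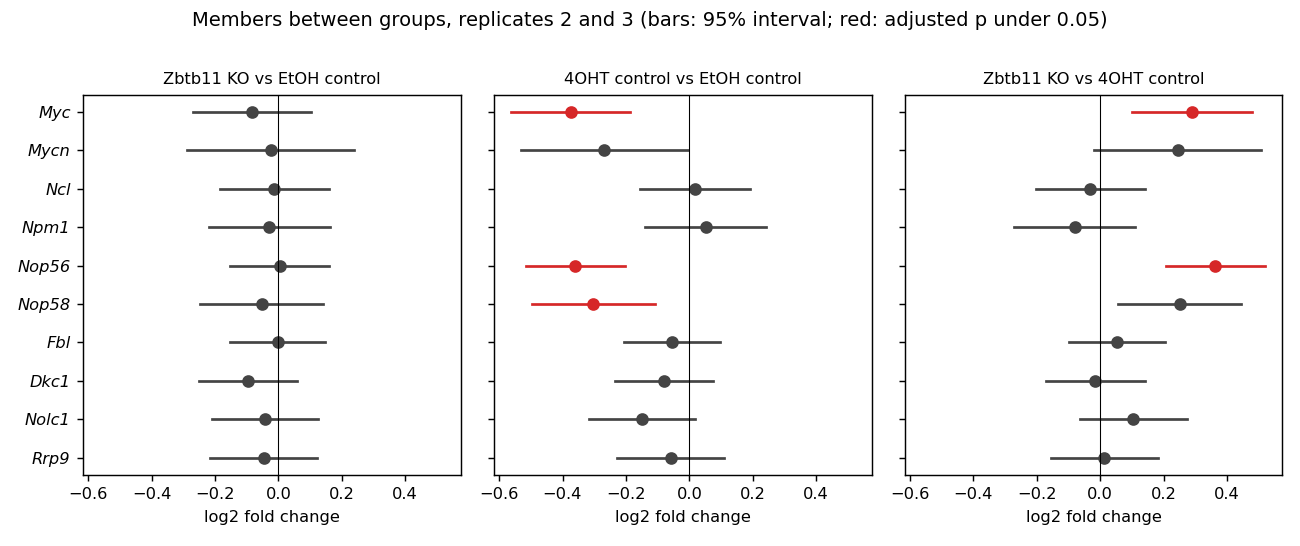
Log2 fold changes of the 10 members in the 3 comparisons over replicates 2 and 3, with 95% confidence intervals as bars and DE members in red. No member is red between *Zbtb11* KO cells and the EtOH control, *Myc*, *Nop56* and *Nop58* are lower in the 4OHT control, and *Myc* and *Nop56* are higher in *Zbtb11* KO cells than in the 4OHT control.

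The lack of a DE member among 10 genes does not set the members apart from the wider lists, in which few genes were called. Between *Zbtb11* KO cells and the EtOH control 6 genes of these lists were DE. They comprised 3 of 43 small subunit genes, 2 of 41 large subunit genes and 1 of 15 RNA polymerase I genes, all lower, beside 1.35% of all tested genes. *Taf1b*, which encodes a subunit of the RNA polymerase I initiation factor SL1, was at 21.9, 25.5 and 25.6 CPM in the EtOH control and 3.38, 5.04 and 5.41 CPM in *Zbtb11* KO cells. Its log2 fold change over replicates 2 and 3 was -2.29 (standard error 0.12, edgeR adjusted p = 2.68e-07). *Wdr36*, which encodes a small subunit processome protein, was at 157, 183 and 181 CPM against 39.9, 55.4 and 50.4 CPM, and changed by -1.78 (standard error 0.09, edgeR adjusted p = 3.35e-07). For both genes no *Zbtb11* KO library reached the level of any control library. *Las1l*, for a nuclease of the internal transcribed spacer, changed by -0.71 (edgeR adjusted p = 8.99e-05) and *Mphosph10*, for a U3 particle protein, by -0.61 (0.000393). *Nsa2*, for a large subunit assembly factor, changed by -0.30 (edgeR adjusted p = 0.0418), and its call was lost without any 1 of the 4 libraries of these groups, in DESeq2, with library sizes and with no expression filter. *Bms1*, for a GTPase of the processome, changed by -0.60 (edgeR adjusted p = 0.000598). It was chosen after its values were seen, as the third small subunit gene, and was also low in the 4OHT control, at 209, 232 and 263 CPM against 297, 362 and 377 CPM in the EtOH control. With all 3 replicates and no block, *Taf1b* (edgeR adjusted p = 0.000138) and *Wdr36* (0.000177) kept their calls and the other 4 genes did not (edgeR adjusted p = 0.0555 to 0.751). The log2 fold changes there were -0.75 at *Las1l*, -0.62 at *Mphosph10*, -0.62 at *Bms1* and -0.26 at *Nsa2*, and with all 3 replicates and the block all 4 were DE (edgeR adjusted p = 1.57e-08 to 0.00751). With replicates 1 and 3 alone *Taf1b* at -2.43 and *Wdr36* at -1.91 missed the threshold (edgeR adjusted p = 0.0644 and 0.0541), and with replicates 1 and 2 alone, at -2.49 and -1.83, they passed it (edgeR adjusted p = 0.0374 and 0.0456). Over replicates 2 and 3 the block raised the small subunit count to 4 and the RNA polymerase I count to 2, beside 1.85% of all tested genes lower. None of the other box C/D, H/ACA, Myc partner and Myc target genes was DE in edgeR or DESeq2, apart from 1 Myc target in edgeR with the block. At an unadjusted p under 0.05 edgeR gave 1 other box C/D gene, 1 Myc target and 0 genes of the H/ACA and Myc partner lists. The share of all tested genes under this unadjusted threshold was not taken, so these counts cannot be set against a background.

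Between the controls, 5 of the 8 other box C/D genes were lower in the 4OHT control, among them *Znhit3* at -0.38 and *Znhit6* at -0.35. Of the H/ACA genes 2 of 5 were lower, *Nhp2* at -0.32 and *Nop10* at -0.31, both for core proteins of the particle. The small subunit list had 7 of 43 lower, led by *Ddx47* at -0.80 and *Emg1* at -0.79, and the large subunit list 6 of 41 lower, led by *Nop2* at -0.59 and *Rsl24d1* at -0.44, with 1 higher. In the RNA polymerase I list *Taf1c* at 0.41 was the single DE gene. *Usp28* at 0.28 was the single DE gene of the Myc partners, and of the Myc targets 3 were lower and 2 higher, led by *Ccnd2* at -1.52 and *Prmt5* at 0.33. These counts stand beside 8.22% lower and 8.86% higher among all tested genes. With the replicate block the large subunit list had 11 lower and 1 higher and the Myc targets 6 lower and 2 higher, beside 13.5% lower and 14.1% higher among all tested genes. With all 3 replicates and no block, a single gene of all these lists was DE, from the small subunit list, beside 2.01% lower and 2.06% higher. With all 3 replicates and the block 13 small subunit, 14 large subunit and 8 RNA polymerase I genes were lower, beside 16.5%.

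In *Zbtb11* KO cells against the 4OHT control, 4 of the 8 other box C/D genes were higher, led by *Znhit3* at 0.41 and *Znhit6* at 0.41. Of the small subunit list 3 were higher and 2 lower, led by *Wdr36* at -1.74 and *Emg1* at 0.74. Of the large subunit list 3 were higher and 2 lower, led by *Nop2* at 0.71 and *Las1l* at -0.60. The H/ACA list had *Nhp2* at 0.35 higher and *Naf1* at -0.33 lower. In the RNA polymerase I list 3 genes were higher and 1 lower, led by *Taf1b* at -2.47 and *Polr1d* at 0.28. *Usp28* at -0.37 and *Fbxw7*, for a ubiquitin ligase of Myc, at 0.23 were the DE genes among the Myc partners. The Myc targets had 2 higher and 2 lower, led by *Ccnd2* at 1.61 and *Prmt5* at -0.46. Among all tested genes 10.3% were lower and 8.38% higher. With the replicate block the small subunit list had 7 higher and 3 lower, the large subunit list 11 higher and 4 lower and the Myc partners 2 higher and 4 lower, beside 13.7% higher and 15.7% lower among all tested genes. With all 3 replicates and no block 0 genes of the other box C/D, H/ACA, Myc partner and Myc target lists were DE in edgeR, against 3, 1, 2 and 5 genes at an unadjusted p under 0.05. For the unadjusted counts the share of all tested genes was not taken. In that fit the small subunit list had 2 higher and 1 lower, and the large subunit and RNA polymerase I lists 1 lower each, beside 2.73% higher and 3.72% lower. With all 3 replicates and the block 17 small subunit and 17 large subunit genes were higher, beside 16.9%.

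Zbtb11 binding was read from a table of 7500 consensus peaks, found with both the FLAG and the Zbtb11 antibody, in which the authors give normalised coverage in 7 libraries. A promoter was taken as 2 kb upstream to 500 bases downstream of an annotated transcript start. Of the 10 members 1, *Fbl*, had a consensus peak at its promoter, beside 31.3% of all 14172 tested genes. The peak (chr7:28954019-28955219 in mm9) was centred 146 bases upstream of the 5′ end. Its coverage was 71.1, 59.3, 85.4 and 72.7 in the 4 Zbtb11 libraries, a mean of 72.1 ± 10.7 (SD, n = 4). In the 3 FLAG-Zbtb11 libraries it was 98.2, 71.6 and 88.1, a mean of 86.0 ± 13.4 (SD, n = 3). The peak ranked 3713 of 7500 by its mean over the Zbtb11 libraries, close to the median of 71.3. The 200 bases upstream of *Fbl* are shown because they lie within this peak, on the plus strand of mm9, with the E-box and a CTTCCGG motif, the complement of CCGGAAG that ETS family factors are known to bind, in capitals.
Fbl chr7:28954565-28954764: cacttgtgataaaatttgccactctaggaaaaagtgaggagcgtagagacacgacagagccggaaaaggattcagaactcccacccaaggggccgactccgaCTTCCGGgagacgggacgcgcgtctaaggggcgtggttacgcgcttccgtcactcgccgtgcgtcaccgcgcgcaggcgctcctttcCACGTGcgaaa

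The other 9 members had no consensus peak at their promoters. The nearest consensus peak lay 6022 bases from a start of *Nop56*, 10071 bases from *Rrp9*, 12548 bases from *Nolc1*, 13710 bases from *Nop58*, 23013 bases from *Myc*, and 49762 to 275743 bases from *Npm1*, *Ncl*, *Mycn* and *Dkc1*. *Ncl* had 1 promoter peak in the full list of the Zbtb11 antibody, and *Nolc1* 1 in the full list of FLAG-Zbtb11. None of the 10 members had a peak of the FLAG control there. *Fbl*, with its peak of median strength, had a log2 fold change of 0.00 in *Zbtb11* KO cells against the EtOH control (95% confidence interval -0.15 to 0.15).

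In the wider lists a promoter peak was found at 24 of 43 small subunit genes, 28 of 41 large subunit genes, 11 of 15 RNA polymerase I genes, 4 of 8 other box C/D genes and 2 of 5 other H/ACA genes. The counts were 5 of 12 for the Myc partners and 5 of 21 for the Myc targets. Among all 14172 tested genes the share was 31.3%. Each of the 6 genes of these lists that were DE in *Zbtb11* KO cells had 1, with a mean coverage over the Zbtb11 libraries of 339 ± 118 (SD, n = 4) at *Taf1b* to 987 ± 273 at *Nsa2* and ranks of 767 to 20. At *Wdr36* the mean was 712 ± 242, at *Mphosph10* 510 ± 159, at *Las1l* 490 ± 134 and at *Bms1* 464 ± 125. The order of the peaks did not follow the order of the fold changes, since *Nsa2* had the strongest peak and the smallest change.

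**Figure D5:**
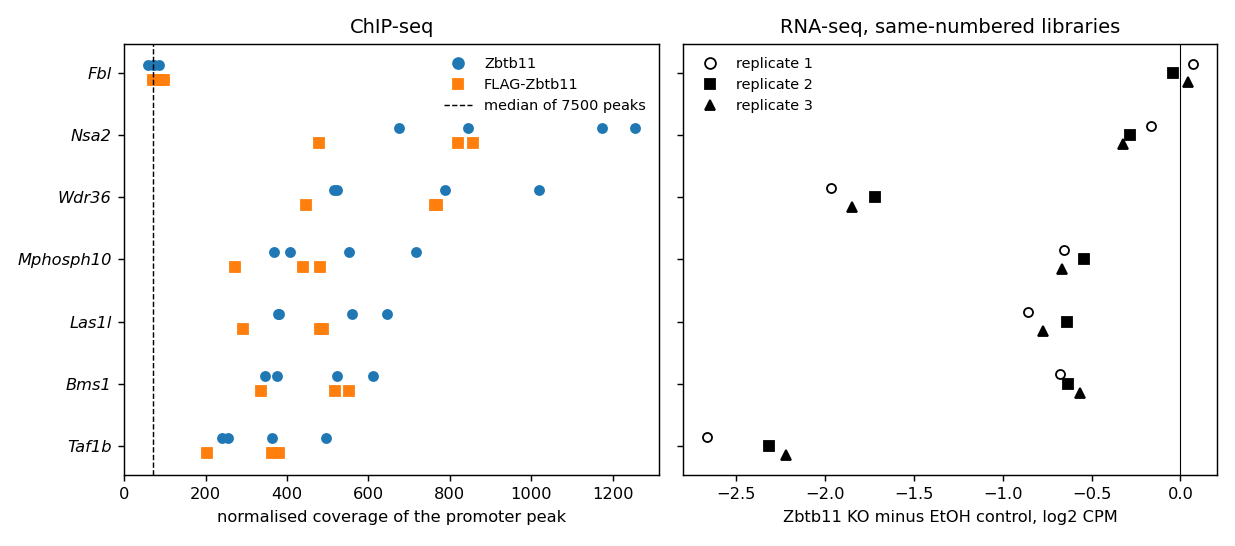
Left, normalised coverage of the promoter peak in each Zbtb11 (circles) and FLAG-Zbtb11 (squares) library for *Fbl* and the 6 DE genes of the wider lists, with the median of all 7500 peaks dashed. Right, *Zbtb11* KO minus EtOH control in log2 CPM for libraries of the same replicate number, where *Fbl* stays near 0 and the 6 other genes lie below it in all 3 replicates.

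The ETS motif CCGGAAG, searched on both strands, was found within the promoter peaks of 5 of these 6 genes, all but *Nsa2*, and in 39.1% of all 7500 consensus peaks. It is shown for 4 of them, because most of these peaks held it. Each line holds 1 occurrence, with 30 bases on the strand of the gene in mm9 and the motif in capitals.
Taf1b chr12:25183436-25183465, plus strand: ccccgtctctcCCGGAAGcggcgcttgctg
Mphosph10 chr7:71537116-71537145, minus strand: ttggcgtactgCTTCCGGccggccggccgg
Las1l chrX:93152388-93152417, minus strand: gtgaatgaacgCTTCCGGcagcgagcggtg
Bms1 chr6:118369525-118369554, minus strand: cccagagcttaCTTCCGGctttcccctgaa
Among the members the motif occurred within 1000 bases of the 5′ end in *Ncl*, *Fbl*, *Nolc1* and *Rrp9*, that is 4 of 10 beside 33.1% of all tested genes. In the window of 250 bases upstream to 50 bases downstream it occurred in 3 of 10, beside 15.8%. *Fbl* was the 1 member with the motif and a consensus peak. The palindrome GCGCATGCGC, known as the site of NRF-1, was found near 0 of the 10 members, beside 2.7% of all tested genes in the wider window and 1.81% in the narrower one.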

How the data were processed

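The deposited RNA-seq values are whole counts per gene from directional libraries, which the authors made with STAR for alignment and HTSeq for counting. The authors aligned the ChIP-seq reads to mm9 with Bowtie 1.1.2, called peaks with MACS2 and normalised the coverage (signal) of the consensus peaks between libraries with DiffBind. Inputs were not analysed here.

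From the counts, differential expression was tested with edgeR 4.0.16 in R 4.3.3 (TMM, legacy quasi-likelihood F test, two-sided) over replicates 2 and 3 of the 3 groups in one fit, on genes above 1 CPM in 2 or more of the 6 libraries. Benjamini-Hochberg adjustment ran over all tested genes, with 0.05 as the threshold. Replicate 1 enters the description of the members on log2 CPM with a prior count of 2. DESeq2 1.42.0 was an alternative. With 2 libraries per group the intervals cover the spread between cultures of the same cells, and not that between independent lines. Both comparisons with the 4OHT control set the engineered line against wild-type cells.

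The members and the gene lists were chosen with earlier results of these data known. From each list at most 2 DE genes with the largest change were named per comparison, with the lowest and highest gene for replicate 1, the 5 genes most like *Myc* and the 5 most like the nucleolar mean. For *Myc*, 2 of the 5 are not reported here. Libraries of the same replicate number tended to deviate together. Pearson's r of deviations from group means was 0.43 to 0.82 over 9 pairs, against -0.753 to 0.526 for different numbers. The ranges overlapped at replicate 2, where the EtOH library followed 4OHT replicate 3 (0.526) more than 4OHT replicate 2 (0.430). Pairing by number was thus not settled for replicate 2. The main fit held no block, and the fit with the replicate block is given where it changes a call.

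Gene positions, promoters and sequences are those of GENCODE and mm9, which hold all 37310 identifiers. Near-identical sequence was searched with blastn 2.17.0, sequences were read with pysam 0.24.0, and the fits were tested on simulated counts. FPKM was computed from the total length of annotated exons.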

Additional observations from a re-analysis of the deposited data

How the results depend on the processing

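No member was DE between *Zbtb11* KO cells and the EtOH control in edgeR or DESeq2 under any alternative tried, which comprised other replicates, left-out libraries, the replicate block, other scalings, other filters, only the groups compared and a newer form of the fit. The number of DE genes in that comparison was 212, and 129 with all 3 replicates and no block, 323 with all 3 and the block, 322 with replicates 2 and 3 and the block, and 13 to 249 when a replicate or library was left out. Between the controls it was 2420, and 583, 4816 and 3914 in the same fits and 13 to 3016 with left-out libraries. Of the members 3 were DE there, 0 and 5 with all 3 replicates without and with the block, 4 with replicates 2 and 3 and the block, 2 with only the groups compared, and 0 to 4 with left-out libraries. For *Zbtb11* KO cells against the 4OHT control the count of genes was 2645, and 925, 5010 and 4174, and 82 to 2907 with left-out libraries. Its count of members was 2, then 0, 5 and 4, 3 with library sizes (*Nop58* at 0.29, edgeR adjusted p = 0.0347), 1 in DESeq2, 1 with no expression filter, 1 with only the groups compared, and 0 to 4 with left-out libraries. Between the controls the share of all tested genes called was 17.1% in the main fit and 27.6% with replicates 2 and 3 and the block. With all 3 replicates it was 4.06% without the block and 33.6% with it. For *Zbtb11* KO cells against the 4OHT control these shares were 18.7, 29.5, 6.45 and 34.9% in the same order. The replicate block lost no call of a member and added *Mycn*, *Nop58* and, with all 3 replicates, *Nolc1*, and changed no other call of a member. The fewer calls with replicate 1 went with a wider spread, a common biological coefficient of variation of 17.4% over all 3 replicates against 6.8% over replicates 2 and 3 and 5.33% with the block. Of 1116 fold changes of named genes under an alternative none that was DE in either fit changed sign, 155 missed the threshold and 12 newly passed it.

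The members stayed lowest in replicate 1 under library sizes, DESeq2-type size factors, a prior count of 0.5 and CPM without mitochondrial genes, with a median of -0.42 to -0.36. Library sizes moved the median of all genes to 0.06. The count of members with a promoter peak was 1, and 2 with all Zbtb11 antibody peaks or with all FLAG-Zbtb11 peaks. The count of members with an E-box was 7, and 1 in the window from 250 bases upstream to 50 bases downstream, an alternative added after the data were examined.

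*Myc* was counted on 67 to 160 reads in replicate 1, so its fold there is less precise than those of the other members.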
